A study of Mus musculus with 6 samples.

Results

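The Wnt ligands, their Frizzled receptors and 2 families of secreted Wnt inhibitors, the secreted Frizzled-related proteins (Sfrp) and the Dickkopf proteins (Dkk), were examined by RNA sequencing in mouse inguinal fat. Members were taken from the gene count table by symbol: any symbol beginning with Wnt, Fzd, Sfrp or Dkk and a digit was included. This gave 37 of 52550 genes, made up of 19 Wnt ligands, 10 Frizzled receptors, 4 Sfrp genes and 4 Dkk genes. The 6 libraries came from the inguinal white fat pad of C57BL/6 mice, the subcutaneous fat of the groin. In 3 of them, named A2B1 1 to 3, an adeno-associated virus (AAV) vector had delivered the coding region (CDS) of mouse Hnrnpa2b1, an RNA-binding protein, into the pad. In the other 3, named control 1 to 3, the pad had received an AAV labelled as a scrambled control, which the series' design also calls AAV GFP. Both groups therefore carried a viral injection. The labels give neither age, time after injection, the promoter of the vector nor the cells it reached, and they do not say whether each library came from a separate animal. Without that, a p-value here speaks of variation among libraries, some of which could be technical.

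Wnt proteins are secreted lipid-modified signals that bind Frizzled receptors together with the co-receptors Lrp5 and Lrp6. In the canonical branch this stabilises beta-catenin, which enters the nucleus and activates target genes with TCF/LEF factors; other branches act without beta-catenin. Sfrp proteins resemble the ligand-binding part of Frizzleds and bind Wnts outside the cell, whereas most Dkk proteins block Lrp5 and Lrp6. In fat, canonical Wnt signals hold precursor cells back from becoming adipocytes, and Sfrp5 is known as a Wnt-binding protein secreted by mouse adipocytes.

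The libraries held 72961324 to 86663359 counts. A2B1 library 1 stood apart on the first principal component, at -107.6 against 18.1 and -50.6 for the other A2B1 libraries and 26.4 to 69.6 for the controls. The labels name the source as adipocytes. The adipocyte markers Adipoq, Plin1 and Fabp4 were high in every library, but markers of other cells were present too, so the values describe whole tissue. The 12 lymphocyte and lymph node markers summed to 6.14, 11.9 and 10.5 CPM (read counts scaled to the size of each library) in A2B1 libraries and to 270.1, 41.3 and 8.06 CPM in control libraries 1, 2 and 3. Hnrnpa2b1 itself, the check of the labels, had 763, 789 and 748 CPM in A2B1 libraries and 555, 525 and 605 CPM in controls (edgeR adjusted p = 0.0654). The counts do not tell viral from endogenous transcript. In bulk tissue, fewer cells of a type and less RNA per cell cannot be told apart, which applies to every result here.

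Of the members, Sfrp5 fell in A2B1 libraries to 0.125 of its control level, and no other member passed the test. Per length, Sfrp5 was the most abundant secreted inhibitor of the set in control fat. Beside it, Nkd1, a gene induced by Wnt signalling whose product binds Dishevelled and dampens the pathway, fell among the pathway genes outside the 4 families. Wnt5a and Fzd4, the leading ligand and the leading receptor by level per length, had overlapping groups.

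Transcript was measurable for most of the set, and 24 of the 37 members had enough counts to be tested. The test was edgeR's quasi-likelihood F test, fitted over all 19146 genes that passed a low-count filter, with a Benjamini-Hochberg adjusted p under 0.05 called. Called were 1 of the 24 tested members, with 0 higher, against 1.82% of all tested genes (1.33% lower and 0.496% higher). An unadjusted p under 0.05 was reached by 6 members, all lower, which is 25% of those tested against 24.2% of all genes (12.7% lower). In 9 members, or 37.5%, the groups did not overlap, 7 of them with A2B1 below control and 2 above, against 30.6% of all genes (15.5% below and 15.1% above). The log2 fold change of A2B1 over control was below 0 in 19 of the 24 (79.2%), against 49.7% of all genes, with a median of -0.34 against 0.0021. A fitted level at least 2-fold lower was found for 2 members, Sfrp5 and Wnt8b, and for 7.22% of all genes. Members that passed the filter are not the whole set, and these counts are a description of it. The filter needs its minimum in any 3 libraries. Wnt6 and Wnt8b, both without overlap, reached it in all 3 libraries only of the group in which they were higher. The lower group, with 2 such libraries, would not have passed either gene alone. Wnt9b, with overlap, reached it in 1 A2B1 and 2 control libraries. DESeq2, another count test, called 3 members, all lower (Sfrp5, Fzd2 and Wnt8b), and 15.2% of all genes (8.29% lower). With limma-voom, 1 member was called lower (Sfrp5) and 2.44% of all genes (1.67% lower).

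**Figure D1:**
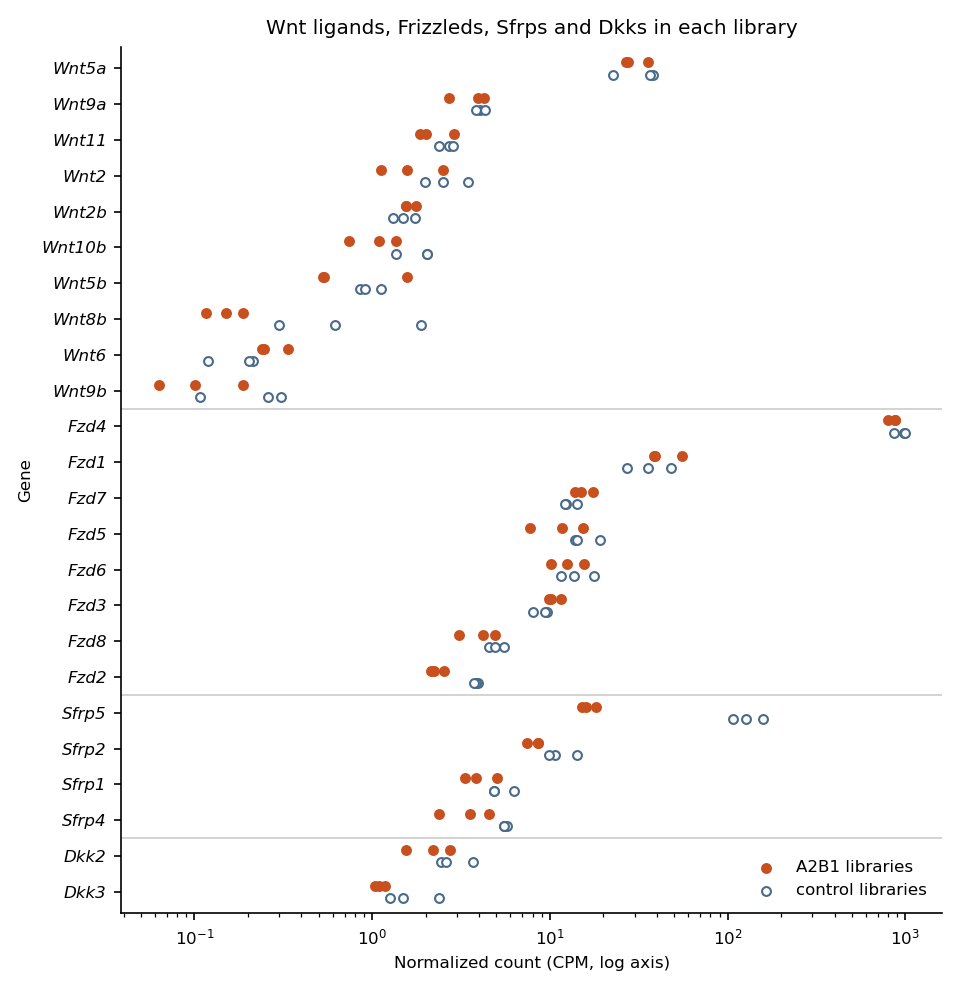
Normalized counts (CPM, log axis) of the 24 tested members in each library, ordered within Wnt, Fzd, Sfrp and Dkk by mean level; filled points are the A2B1 libraries and open points the control libraries. Sfrp5 lies at 15.2 to 18.1 CPM in A2B1 libraries, well to the left of its 107 to 159 CPM in controls, while most other members overlap.

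Upstream sequences are shown for Sfrp5 and Nkd1, the genes that fell, and for Wnt8b, the ligand with the largest fitted change. Each line gives the 250 bases before the RefSeq transcript start on build GRCm38.p6, 5′ to 3′ on the gene's strand, and capitals mark matches to the motifs named after them. The windows are chr19:42202253-42202502 (minus strand) for Sfrp5, chr8:88527383-88527632 (plus strand) for Nkd1 and chr19:44493222-44493471 (plus strand) for Wnt8b.
Sfrp5: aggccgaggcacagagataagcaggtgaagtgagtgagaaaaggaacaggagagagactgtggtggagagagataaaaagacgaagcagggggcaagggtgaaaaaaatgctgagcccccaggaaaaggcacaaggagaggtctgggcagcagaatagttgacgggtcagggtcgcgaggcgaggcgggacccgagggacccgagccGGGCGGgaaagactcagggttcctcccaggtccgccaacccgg
Nkd1: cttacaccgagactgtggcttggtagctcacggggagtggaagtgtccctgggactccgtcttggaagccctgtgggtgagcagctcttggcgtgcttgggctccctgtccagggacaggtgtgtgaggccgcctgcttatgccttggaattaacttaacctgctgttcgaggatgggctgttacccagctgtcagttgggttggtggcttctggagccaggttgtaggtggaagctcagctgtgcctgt
Wnt8b: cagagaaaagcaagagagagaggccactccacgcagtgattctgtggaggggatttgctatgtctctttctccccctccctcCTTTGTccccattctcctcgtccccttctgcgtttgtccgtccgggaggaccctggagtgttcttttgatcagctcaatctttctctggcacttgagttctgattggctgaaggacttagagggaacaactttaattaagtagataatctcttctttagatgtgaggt
The motifs searched, on both strands, were the TCF/LEF cores CTTTGA and CTTTGT, the GC box GGGCGG and the TATA box TATAAA. The TCF/LEF cores differ only in their last base, and no window printed here holds more than 1 match. Sfrp5 held 1 GC box, 43 to 38 bases before the start, Wnt8b held 1 CTTTGT, 168 to 163 bases before it, and the Nkd1 window held none of the 4. Over all 32851 RefSeq windows of this length, 13.8% held CTTTGA, 16.5% CTTTGT, 32.7% the GC box and 12.4% the TATA box. Among the 28 windows of the 25 members with an entry, 4 held CTTTGA, 5 CTTTGT, 20 the GC box and 4 the TATA box. The Sfrp5 window was 59.6% G and C with 13 CpG sites, Nkd1 58.4% with 6 and Wnt8b 48.4% with 5, against medians of 52.4% and 6 over all windows. The RefSeq start of Nkd1 used here lies 6279 bases inside the gene as GENCODE M21 draws it, while those of Sfrp5 and Wnt8b match the GENCODE gene ends exactly. A match is a string of letters and not a measured binding site.

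Sfrp5 (ENSMUSG00000018822, mm10 chromosome 19, 42197971 to 42202252, minus strand) was covered by 1102, 1212 and 1349 counts in A2B1 libraries and by 8100, 11304 and 13312 counts in controls. After scaling, these were 16.0, 15.2 and 18.1 CPM in A2B1 libraries against 107, 127 and 159 CPM in controls. The 3 A2B1 libraries lay close together and far below the lowest control. Means were 16.4 ± 1.51 CPM in A2B1 libraries and 131 ± 26 CPM in controls (SD, n = 3 each). The log2 fold change was -2.99 (SE 0.17, edgeR adjusted p = 0.00841). The call held when any 1 library was left out, with log2 fold changes of -3.12 to -2.83 and adjusted p-values of 0.0129 to 0.0472. It also held without both A2B1 library 1 and control library 1. No other gene's exons overlap those of Sfrp5 in GENCODE M21.

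Markers of mature adipocytes, the cells that are known to secrete Sfrp5, differed one by one in both directions. Their sum, of which Fabp4 and Lpl were the largest terms, overlapped between the groups, at 44323, 43596 and 44572 CPM in A2B1 libraries against 41814, 41495 and 45344 CPM in controls. The sum mixes opposite changes, since Lep was lower in A2B1 libraries and Cfd higher. Cfd, named after its values were seen, had 5416, 5641 and 5473 CPM in A2B1 libraries against 916, 1981 and 3618 CPM in controls. Its adjusted p was 0.170 in edgeR and 0.0121 in DESeq2. Of these 12 markers, 1 rose (Adrb3) and 2 fell (Lep and Cidec) in edgeR and in limma-voom, and all 3 are named after their values were seen. An unadjusted p under 0.05 was reached by 9, of which 6 were higher and 3 lower, against 24.2% of all genes. DESeq2 called 7, against 15.2%, and the groups did not overlap in 8, against 30.6%. In these 8, A2B1 lay above in 5 and below in 3. Lep, which encodes the fat hormone leptin, had 884, 1059 and 1110 CPM in A2B1 libraries against 4538, 3232 and 3608 CPM in controls (log2 fold change -1.90, edgeR adjusted p = 0.0166). Adrb3, an adrenergic receptor through which fat cells respond to noradrenaline, had 598, 591 and 398 CPM in A2B1 libraries against 138, 169 and 178 CPM in controls (log2 fold change 1.71, edgeR adjusted p = 0.0248). Sums of 2 further marker lists lay below all controls in every A2B1 library. The 10 mural and smooth muscle markers summed to 953, 1072 and 1101 CPM in A2B1 libraries against 1236, 1764 and 1495 CPM in controls. The 10 skeletal muscle markers had 3.72, 7.66 and 14.3 CPM in A2B1 libraries against 23.0, 26.9 and 178 CPM in controls. Control library 3 alone held Myh4, at 4814 counts, and most of Ckm and Tnnt3, at 1524 and 1744 counts. In control libraries 1 and 2 the largest term was Acta1, at 16.6 and 20.9 CPM. Of the 10 mural markers, 7 had a log2 fold change below 0, against 49.7% of all genes. At an unadjusted p under 0.05, 5 of the 10 were lower and 2 (Cspg4 and Des) higher. Over all genes that share was 24.2%, with 12.7% lower. Cspg4 and Des lay above all controls in every A2B1 library. In edgeR and in limma-voom 1 mural marker was called, lower, against 1.82% and 2.44% of all genes. DESeq2 called 5, against 15.2%. The 10 macrophage markers summed to 453, 770 and 334 CPM in A2B1 libraries and to 1152, 868 and 762 CPM in controls, which overlap slightly. Among the controls, Sfrp5 was lowest in library 1, which had the highest lymphocyte and macrophage sums. The part of these cells in the Sfrp5 values was not tested.

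The remaining Sfrp genes had lower means in A2B1 libraries but did not pass the test. Sfrp2, a stromal family member, had 7.46, 8.56 and 8.60 CPM in A2B1 libraries against 10.6, 14.2 and 9.85 CPM in controls. Its groups did not overlap, and its log2 fold change was -0.50 (SE 0.17, edgeR adjusted p = 0.166). Sfrp4 had 4.55, 3.55 and 2.38 CPM in A2B1 libraries against 5.53, 5.75 and 5.48 CPM in controls. Its control values were tight and its A2B1 values spread below them (log2 fold change -0.68, SE 0.25, edgeR adjusted p = 0.178). Sfrp1 had 3.34, 5.07 and 3.82 CPM in A2B1 libraries against 4.82, 6.27 and 4.84 CPM in controls, with overlap between the groups (log2 fold change -0.38, SE 0.22, edgeR adjusted p = 0.334). Gm26771 overlaps Sfrp2 exons from the opposite strand. Whether counting used strand is unknown from the labels, so counts of genes with such an antisense partner are uncertain.

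**Figure D2:**
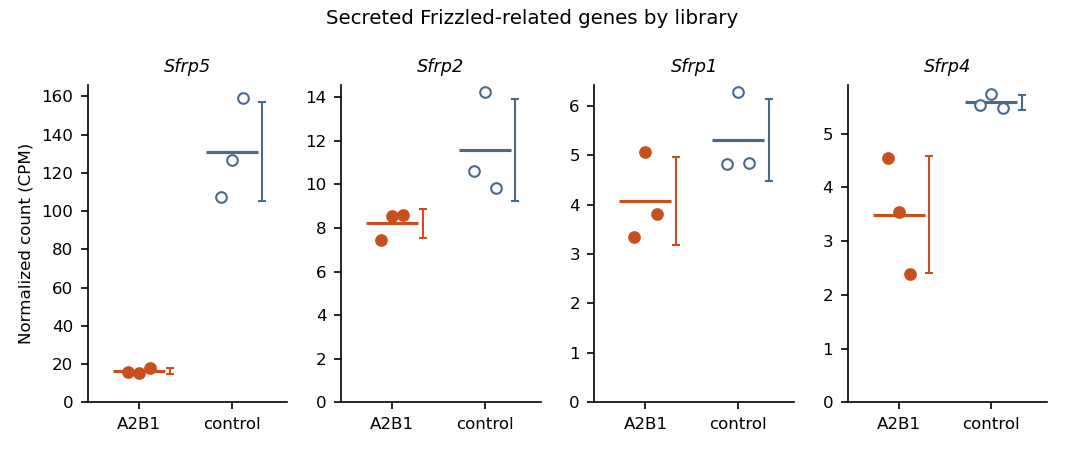
Normalized counts (CPM, each panel with its own axis from 0) of the 4 Sfrp genes in the A2B1 libraries (filled, left) and control libraries (open, right); horizontal lines are means and vertical bars 1 SD (n = 3 each). Sfrp5 averaged 16.4 CPM in A2B1 and 131 CPM in control libraries, and Sfrp1 is the panel in which the groups overlap.

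Sfrp2 and Sfrp4 are read beside the markers of fibroblasts and adipocyte progenitors. Of 14 such markers, 13 had a log2 fold change below 0, against 49.7% of all genes, and the median was -0.29. By edgeR and by limma-voom 0 were called. An unadjusted p under 0.05 was reached by 4, against 24.2% of all genes, and DESeq2 called 3, against 15.2%. Their summed level was 4130, 5522 and 3087 CPM in A2B1 libraries and 5249, 5061 and 4711 CPM in controls, with A2B1 library 2 above every control, and all 14 had counts. The part of these cells in the Sfrp2, Sfrp4 and Fzd2 values was not tested.

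Levels of different genes were compared per length, as CPM per kb of annotated exon. On that scale the 4 Sfrp genes together reached 13.7, 14.0 and 15 CPM per kb in A2B1 libraries against 63.9, 76.2 and 90.7 CPM per kb in controls. Sfrp5 made up 60.7% ± 3.24 of this sum in A2B1 libraries and 89.5% ± 2.48 in controls (SD, n = 3 each). The summed level of the other 3 was 5.58 ± 0.357 CPM per kb in A2B1 libraries and 7.93 ± 1.31 CPM per kb in controls. Thus Sfrp5 stayed the most abundant Sfrp transcript in each library.

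**Figure D3:**
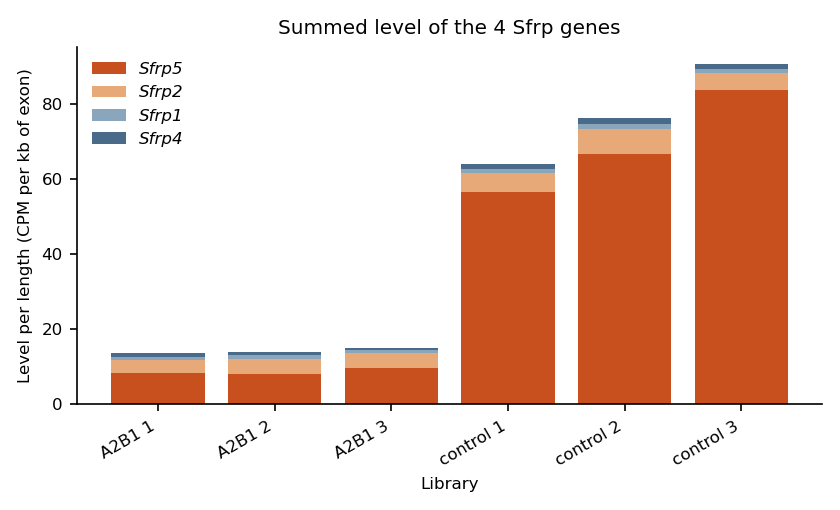
Stacked level per length (CPM per kb of exon) of Sfrp5, Sfrp2, Sfrp1 and Sfrp4 in each library, A2B1 libraries on the left. The stacks reach 13.7 to 15 in A2B1 libraries and 63.9 to 90.7 in controls, and the Sfrp5 block accounts for most of that gap.

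Among the Dkk genes, Dkk2 and Dkk3 were measurable and neither passed the test. Dkk3, a divergent member that is not a typical Lrp5 and Lrp6 blocker, had 1.09, 1.18 and 1.04 CPM in A2B1 libraries against 1.49, 2.39 and 1.27 CPM in controls. The groups did not overlap, though the nearest values were close (log2 fold change -0.64, SE 0.30, edgeR adjusted p = 0.245). Dkk2, which binds Lrp5 and Lrp6, had 2.20, 2.73 and 1.56 CPM in A2B1 libraries against 2.44, 2.60 and 3.71 CPM in controls, with overlap (log2 fold change -0.43, SE 0.29, edgeR adjusted p = 0.399). The other two were near 0. Dkk1, the best-known blocker of Lrp5 and Lrp6, had 2, 0 and 0 counts in A2B1 libraries against 0, 0 and 3 in controls. Dkk4 had 8, 3 and 0 counts in A2B1 libraries against 0 in all 3 controls.

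Of the 19 ligands, 17 had at least 1 count, 10 were tested and 0 were called in edgeR or limma-voom. Over all genes these tests called 1.82% and 2.44%. An unadjusted p under 0.05 was reached by 2 of the 10 ligands, against 24.2% of all genes, and DESeq2 called 1, against 15.2%. Wnt5a, a ligand that mostly signals without beta-catenin, was the leading one. It had 26.7, 27.5 and 35.4 CPM in A2B1 libraries against 38.0, 36.5 and 22.6 CPM in controls, with overlapping groups (log2 fold change -0.11, SE 0.22, edgeR adjusted p = 0.789). Per length, Wnt5a made up 51.1% ± 6.48 of the summed ligand level in A2B1 libraries and 45.9% ± 4.12 in controls (SD, n = 3 each). The summed level itself was 7.49 ± 0.766 CPM per kb in A2B1 libraries and 8.92 ± 1.74 CPM per kb in controls. Wnt5a has the antisense partner Gm2670 and Wnt11 has Gm8398, so both counts are uncertain.

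Wnt10b, the ligand best known for holding back adipocyte formation in mice, had 1.36, 1.09 and 0.739 CPM in A2B1 libraries against 2.03, 2.04 and 1.36 CPM in controls. The highest A2B1 value lay just under the lowest control, and the log2 fold change was -0.77 (SE 0.31, unadjusted p = 0.0466, edgeR adjusted p = 0.199). Wnt6, which has been linked to the same block, had 0.246, 0.239 and 0.336 CPM in A2B1 libraries against 0.119, 0.213 and 0.203 CPM in controls. All A2B1 values lay above the controls, at 61 against 45 counts over each group. Wnt6 reached the low-count filter's minimum of 0.131 CPM in all 3 A2B1 libraries and in 2 of 3 control libraries. Its control libraries alone would not have passed it. The ratio of the summed counts was 1.51 (exact 95% counting interval 1.01 to 2.27), and the fitted log2 fold change was 0.61 (SE 0.37, edgeR adjusted p = 0.36). Wnt10a, the neighbour of Wnt6, held 2, 0 and 0 counts in A2B1 libraries against 13, 5 and 0 in controls and was not tested.

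Wnt8b (ENSMUSG00000036961, chromosome 19, 44493472 to 44514273, plus strand), a ligand known mainly from the developing brain, had few counts and a wide control spread. It had 8, 12 and 14 counts in A2B1 libraries and 142, 55 and 25 in controls, or 0.116, 0.151 and 0.188 CPM in A2B1 libraries against 1.88, 0.617 and 0.299 CPM in controls. The groups did not overlap, and control library 1 held most of the control counts. The ratio of summed counts, A2B1 over control, was 0.171 (exact 95% counting interval 0.115 to 0.245). The fitted log2 fold change of -2.60 (SE 0.73) had an adjusted p of 0.119 in edgeR, 0.176 in limma-voom and 0.0102 in DESeq2, and was -1.58 without control library 1. Wnt8b reached the low-count filter's minimum of 0.131 CPM in all 3 control libraries and in 2 of 3 A2B1 libraries. Its A2B1 libraries alone would not have passed it. The order of the control values follows the lymphocyte markers, at 270.1, 41.3 and 8.06 CPM in control libraries 1, 2 and 3, and their part in Wnt8b was not tested.

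The other tested ligands had overlapping groups. Wnt9a had 3.92, 2.69 and 4.24 CPM in A2B1 libraries against 4.02, 4.31 and 3.86 CPM in controls (log2 fold change -0.17, SE 0.22). Wnt11, which acts in the branch without beta-catenin, had 1.87, 2.0 and 2.90 CPM in A2B1 libraries against 2.36, 2.72 and 2.87 CPM in controls (log2 fold change -0.23, SE 0.24). Wnt2, an activator of the canonical branch, had 2.50, 1.57 and 1.12 CPM in A2B1 libraries against 3.46, 2.49 and 1.98 CPM in controls (log2 fold change -0.61, SE 0.37). In these 3 the lowest value belonged to an A2B1 library and the edgeR adjusted p lay between 0.351 and 0.668. Wnt2b had 1.62 ± 0.123 CPM in A2B1 libraries and 1.52 ± 0.220 CPM in controls (SD, n = 3 each). Wnt5b had 1.56, 0.528 and 0.538 CPM in A2B1 libraries against 1.11, 0.853 and 0.908 CPM in controls, so A2B1 library 1 alone lay above all controls. Wnt9b had 26 counts over the A2B1 libraries against 55 over the controls (ratio 0.526, exact 95% counting interval 0.317 to 0.854; edgeR adjusted p = 0.376).

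The 9 untested ligands held at most 16 counts in any library. Wnt4 had 20 counts over the A2B1 libraries against 22 over the controls, and Wnt16 had 9 over the A2B1 libraries against 23 over the controls. Wnt1 had 5 counts over the A2B1 libraries against 3 over the controls. Wnt3, Wnt7a and Wnt7b had 0 counts in A2B1 libraries, against 7, 3 and 3 counts over the controls. Wnt3a and Wnt8a had 0 counts in all 6 libraries, which allows up to 0.0434 CPM in the A2B1 library with the fewest scaled reads and 0.00636 CPM over all 6 (3 counts, counting error only). Several ligand genes lie side by side in the genome, and the neighbours differed in level. On chromosome 15, Wnt10b reached 0.423 CPM per kb over all 6 libraries and Wnt1, 11.7 kb away, 0.00746. On chromosome 11, Wnt9a reached 1.15 CPM per kb while Wnt3a, 16.2 kb away, had 0 counts.

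Of the 10 Frizzled receptors, 8 were tested and 0 were called in edgeR or limma-voom, against 1.82% and 2.44% of all genes. An unadjusted p under 0.05 was reached by 1 of the 8, against 24.2% of all genes. DESeq2 called that 1, against 15.2% of all genes. Fzd4, the receptor that also binds the non-Wnt ligand norrin, was the most abundant of all 37 members. It had 876, 796 and 873 CPM in A2B1 libraries against 866, 985 and 991 CPM in controls. The highest A2B1 value lay above the lowest control, and the log2 fold change was -0.16 (SE 0.10, edgeR adjusted p = 0.354). Per length, Fzd4 made up 86.1% ± 1.22 of the summed Frizzled level in A2B1 libraries and 87.9% ± 1.05 in controls (SD, n = 3 each). Summed markers of endothelial cells, which use Fzd4 in the retina, were 1136, 965 and 955 CPM in A2B1 libraries and 1144, 1544 and 1076 CPM in controls. By edgeR 0 of these 10 markers were called. An unadjusted p under 0.05 was reached by 4, all lower, against 24.2% of all genes, and DESeq2 called 1, against 15.2%.

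Fzd2 (ENSMUSG00000050288, chromosome 11, 102604396 to 102608058, plus strand) had the second smallest p-value of the set. This receptor, which binds Wnt5a among others, had 2.52, 2.24 and 2.15 CPM in A2B1 libraries against 3.93, 3.83 and 3.76 CPM in controls. Both groups were tight and did not overlap. Means were 2.30 ± 0.192 CPM in A2B1 libraries and 3.84 ± 0.0832 CPM in controls (SD, n = 3 each). The log2 fold change was -0.74 (SE 0.17). The adjusted p was 0.0819 in edgeR, 0.0567 in limma-voom and 0.000555 in DESeq2, so the call depends on the test used. Leaving out 1 library moved the log2 fold change between -0.79 and -0.68.

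The other Frizzleds differed by less. Fzd3, known from axon guidance and planar polarity, had 9.90, 11.5 and 10.2 CPM in A2B1 libraries against 9.61, 9.36 and 8.03 CPM in controls. All A2B1 values lay above the controls by a small margin (log2 fold change 0.23, SE 0.13, edgeR adjusted p = 0.333). Fzd1, which binds canonical Wnts, had 38.5, 39.1 and 55.5 CPM in A2B1 libraries against 27.2, 47.9 and 35.5 CPM in controls, with wide overlap (log2 fold change 0.27, SE 0.24). Fzd7, the close relative of Fzd1 and Fzd2, had 17.4, 13.8 and 14.9 CPM in A2B1 libraries against 12.3, 12.1 and 14.3 CPM in controls (log2 fold change 0.25, SE 0.13). Fzd5 had 11.7, 7.77 and 15.3 CPM in A2B1 libraries against 13.8, 14.2 and 19.1 CPM in controls (log2 fold change -0.44, SE 0.27). Values of Fzd6 were 12.7 ± 2.73 CPM in A2B1 libraries and 14.3 ± 3.20 CPM in controls, and those of Fzd8 were 4.07 ± 0.930 CPM in A2B1 libraries and 5.01 ± 0.489 CPM in controls (SD, n = 3 each). For Fzd1, Fzd5, Fzd6, Fzd7 and Fzd8 the edgeR adjusted p lay between 0.285 and 0.673. Fzd5 has the antisense partner Gm38058 and Fzd6 has Gm26704, so these 2 counts are uncertain. Fzd9 and Fzd10 had at most 13 counts in any library and were not tested.

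**Figure D4:**
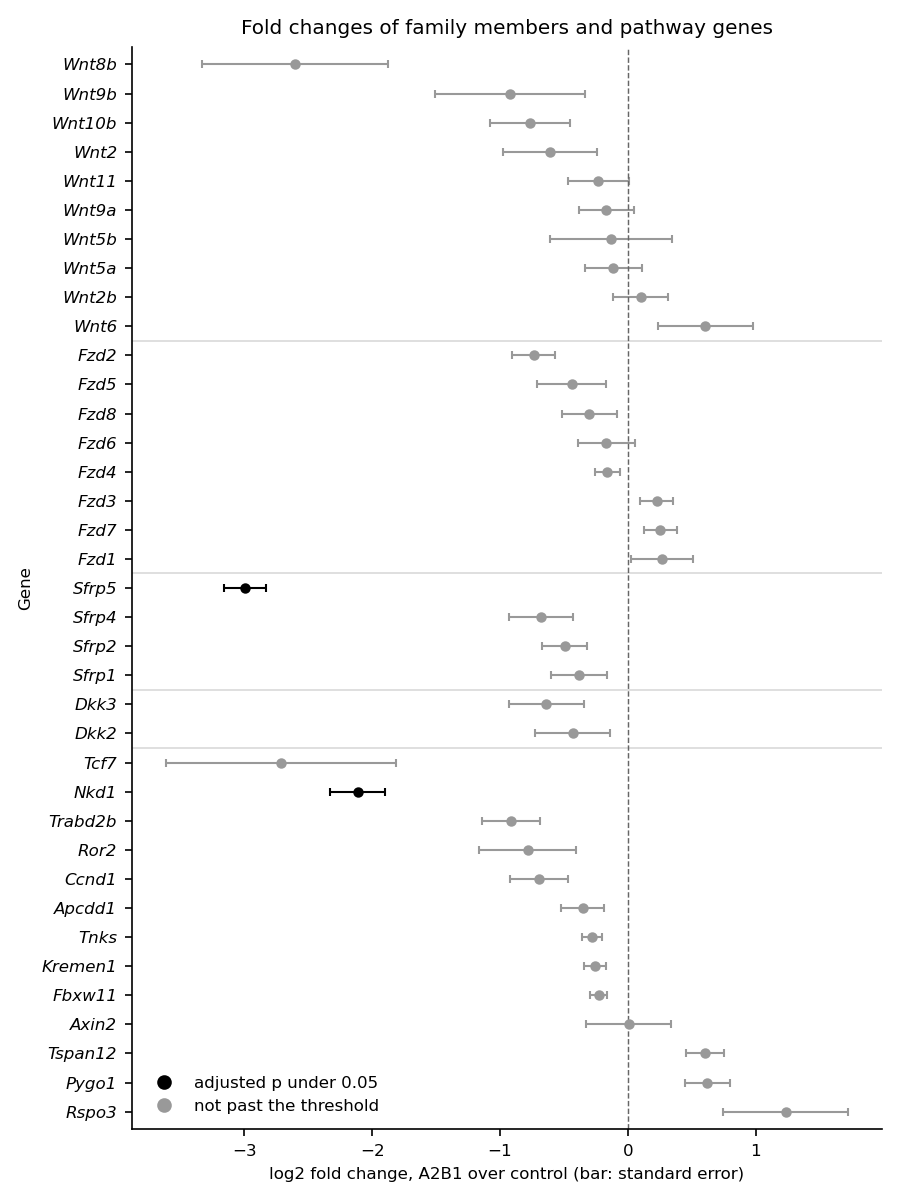
log2 fold changes of A2B1 over control libraries with their standard errors (edgeR) for the 24 tested members, by family, and for 13 pathway genes outside the families; black points passed an adjusted p of 0.05. Sfrp5 at -2.99 and Nkd1 at -2.11 are the black points, and Tcf7 and Wnt8b have large changes with wide bars.

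Ordered by level per length over all 6 libraries, Fzd4 led at 134 CPM per kb, followed by Sfrp5 at 38.8 and Fzd1 at 9.68. Sfrp2 (4.59), Wnt5a (3.98), Fzd7 (3.12) and Fzd6 (2.81) came next. The place of Sfrp5 depended on the group. It had 8.66 ± 0.793 CPM per kb in A2B1 libraries, beside 10.6 ± 2.30 for Fzd1 in the same libraries, a gap within their spread. In controls Sfrp5 had 69.0 ± 13.7 CPM per kb against 8.79 ± 2.48 for Fzd1 (SD, n = 3 each).

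Among 74 other pathway genes in 4 lists, 64 were tested, 1 fell (Nkd1), 0 rose, and 16 had an unadjusted p under 0.05, which is 25% of those tested, the share over all genes being 24.2%. Their median log2 fold change was -0.05. DESeq2 called 9 of them and limma-voom 1, against 15.2% and 2.44% of all genes. Lgr5, Notum, Rnf43, Znrf3, Tcf7, Lef1 and Apcdd1 stood in more than 1 list each. They are counted once here and again in the counts per list. Nkd1 (ENSMUSG00000031661, chromosome 8, 88521354 to 88594884, plus strand) was covered by 316, 346 and 452 counts in A2B1 libraries and by 2049, 1647 and 1618 in controls. These were 4.58, 4.35 and 6.08 CPM in A2B1 libraries against 27.2, 18.5 and 19.3 CPM in controls. The groups lay far apart, with means of 5.0 ± 0.938 CPM in A2B1 libraries and 21.7 ± 4.80 CPM in controls (SD, n = 3 each). Their ratio was 0.231 and the log2 fold change -2.11 (SE 0.21, edgeR adjusted p = 0.0234). Nkd1 kept its call in DESeq2 and limma-voom and when control library 1 was left out. With any of the other 5 libraries left out, its log2 fold change was -2.27 to -2.02 and its adjusted p 0.0535 to 0.0805, above the threshold. Skeletal muscle and mural marker sums also separated the groups, as given with Sfrp5, and their part in the Nkd1 values was not tested.

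Nkd1 was read beside other common targets of the canonical branch. Of 20 target genes, 16 were tested, 1 fell (Nkd1), 0 rose and the median log2 fold change was -0.30. An unadjusted p under 0.05 was reached by 4 of the 16, all lower, against 24.2% of all genes (12.7% lower). DESeq2 called the same 4 (Nkd1, Ccnd1, Tcf7 and Lef1), against 15.2% of all genes, and limma-voom 1. Differences between Nkd1 and the other targets were not tested. Axin2, a feedback inhibitor widely used as a readout of beta-catenin activity and named here after its values were seen, had 9.18, 15.5 and 18.8 CPM in A2B1 libraries against 9.94, 18.7 and 14.7 CPM in controls. The groups covered almost the same range (log2 fold change 0.0050, SE 0.33, edgeR adjusted p = 0.995). Ccnd1, the cell-cycle gene cyclin D1, had 21.8, 22.2 and 17.1 CPM in A2B1 libraries against 41.7, 34.1 and 23.2 CPM in controls. All controls lay above the A2B1 libraries, by a small margin for library 3 (log2 fold change -0.70, SE 0.23; adjusted p = 0.156 in edgeR, 0.156 in limma-voom and 0.0342 in DESeq2). Ccnd1 has the antisense partner LTO1 and Axin2 has Gm11670, so both counts are uncertain.

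Tcf7 and Lef1, TCF/LEF factors that are also abundant in T cells, had wide control spreads. Tcf7 had 0.985, 1.12 and 1.84 CPM in A2B1 libraries against 18.9, 5.40 and 1.66 CPM in controls. Lef1, named after its values were seen, had 0.116, 0.239 and 0.484 CPM in A2B1 libraries against 5.57, 0.707 and 0.323 CPM in controls. In both genes control library 3 fell within the range of the A2B1 libraries. Lef1 reached the low-count filter's minimum of 0.131 CPM in all 3 control libraries and in 2 of 3 A2B1 libraries. Its A2B1 libraries alone would not have passed it. The edgeR adjusted p was 0.163 for Tcf7 (log2 fold change -2.71, SE 0.90) and 0.206 for Lef1 (-2.96, SE 1.21), while DESeq2 called both (adjusted p = 0.0031 and 0.0249). Leaving out control library 1 brought these log2 fold changes to -1.42 and -0.87. The 12 lymphocyte and lymph node markers, none of them without counts, followed the same order over control libraries 1, 2 and 3 (270.1, 41.3 and 8.06 CPM), against 6.14 to 11.9 CPM in A2B1 libraries. Of the 12, 11 had a log2 fold change below 0, against 49.7% of all genes, and edgeR called 0. An unadjusted p under 0.05 was reached by 5, against 24.2% of all genes, and DESeq2 called 6, against 15.2%. Lef1 has the antisense partner Gm43352, so its count is uncertain. Their part in Tcf7 and Lef1 was not tested.

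**Figure D5:**
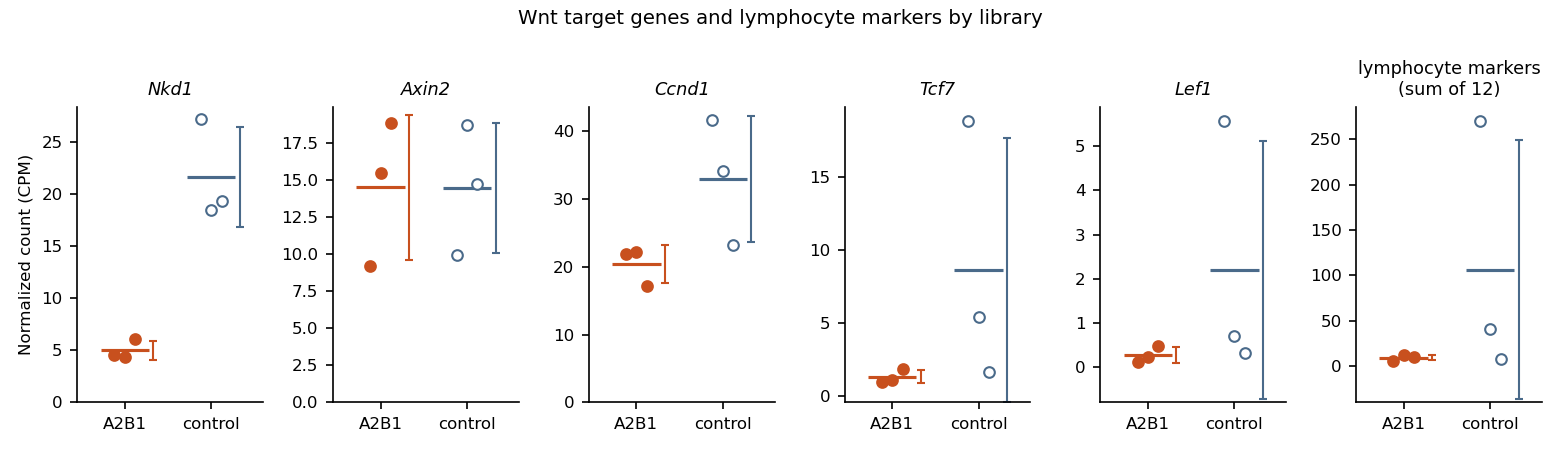
Normalized counts (CPM, linear axes) of 5 Wnt target genes and the summed CPM of 12 lymphocyte markers in the A2B1 libraries (filled, left) and control libraries (open, right), with means and 1 SD (n = 3 each). Nkd1 separates the groups at 5.0 against 21.7 CPM, Axin2 does not, and Tcf7, Lef1 and the lymphocyte markers share the high value of control library 1.

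Among 12 antagonists outside the member families, 8 were tested and 0 were called in edgeR or limma-voom. Of the 8, 2 had an unadjusted p under 0.05, against 24.2% of all genes, and DESeq2 called 1, against 15.2%. Trabd2b, also called Tiki2, a membrane protease that cuts Wnt proteins, had 73.6, 48.4 and 51.9 CPM in A2B1 libraries against 109, 83.8 and 135 CPM in controls. The groups did not overlap (log2 fold change -0.92, SE 0.23; adjusted p = 0.0998 in edgeR, 0.106 in limma-voom and 0.0030 in DESeq2). Kremen1, a Dkk receptor, had 29.6, 31.6 and 29.4 CPM in A2B1 libraries against 33.2, 38.8 and 36.4 CPM in controls (log2 fold change -0.26, SE 0.09, edgeR adjusted p = 0.161). Apcdd1, a membrane inhibitor of Wnt signalling and itself a target, had 133, 146 and 149 CPM in A2B1 libraries against 137, 211 and 197 CPM in controls, with overlap (log2 fold change -0.35, SE 0.17, edgeR adjusted p = 0.257).

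Notum, a secreted enzyme that removes the lipid from Wnt proteins, did not pass the filter. Named after its values were seen, it had 247, 2 and 26 counts in A2B1 libraries against 0, 0 and 5 in controls, so 1 library held most of the reads. The same A2B1 library 1 had the highest sum of 10 epithelial markers, 59.5 CPM against 9.71 and 14.5 in the other A2B1 libraries and 5.21 to 5.97 in controls. Members of that list differed in that library. In A2B1 library 1 Krt8 and Krt18, keratins of simple epithelia, had 18.3 and 20.6 CPM, their highest values. Cdh1 and Cldn3 were also highest there, at 8.70 and 3.19 CPM, against at most 1.33 and 0.632 CPM in the other libraries. In contrast, Krt7 had 0.203 CPM in that library and Epcam 0.0724 CPM, its lowest value in the 6 libraries. The basal marker Trp63 had 8.41, 7.76 and 5.38 CPM in A2B1 libraries against 3.53, 3.86 and 3.34 CPM in controls (edgeR adjusted p = 0.0690, DESeq2 adjusted p = 0.000423), while the basal keratins Krt14 and Krt5 had 0 and 3 counts over all libraries. Of the 7 tested, 3 were higher at an unadjusted p under 0.05, against 24.2% of all genes in either direction. By edgeR and limma-voom 0 were called, while DESeq2 called 4, against 15.2% of all genes. Notum has the antisense partners Notumos and Myadml2os, so its count is uncertain, and the part of epithelial cells in it was not tested.

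Of 19 co-receptor, secretion and R-spondin genes, 16 were tested and 0 were called in edgeR or limma-voom (median log2 fold change -0.02). Of these, 2 had an unadjusted p under 0.05, both higher, against 24.2% of all genes, and DESeq2 called 1, against 15.2%. Tspan12, a tetraspanin that strengthens norrin signalling through Fzd4, had 369, 381 and 380 CPM in A2B1 libraries against 196, 287 and 260 CPM in controls. All A2B1 values lay above all controls (log2 fold change 0.60, SE 0.15; adjusted p = 0.0914 in edgeR, 0.0869 in limma-voom and 0.00384 in DESeq2). Rspo3, a secreted enhancer of Wnt signals, had 43, 23 and 21 counts in A2B1 libraries against 12, 21 and 9 in controls (log2 fold change 1.23, SE 0.49, edgeR adjusted p = 0.192). Rspo3 reached the low-count filter's minimum of 0.131 CPM in all 3 A2B1 libraries and in 2 of 3 control libraries. Its control libraries alone would not have passed it. Tspan12 has the antisense partner Gm30270 and Rspo3 has Gm48159, which makes both counts uncertain. Ror2, a kinase receptor for Wnt5a, had 19, 39 and 35 counts in A2B1 libraries against 45, 89 and 45 in controls (log2 fold change -0.78, SE 0.38, edgeR adjusted p = 0.259). The Frizzled co-receptors were named after their values were seen. Lrp5 had 80.7, 76.4 and 81.6 CPM in A2B1 libraries against 74.1, 117 and 115 CPM in controls (edgeR adjusted p = 0.273), and Lrp6 had 189, 205 and 187 CPM in A2B1 libraries against 182, 200 and 218 CPM in controls (edgeR adjusted p = 0.808).

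All 30 genes of the intracellular relay were tested. In edgeR and limma-voom 0 were called, while DESeq2 called 5, against 15.2% of all genes. An unadjusted p under 0.05 was reached by 10, 2 higher and 8 lower, against 24.2% of all genes (12.7% lower). The median log2 fold change was -0.01. Pygo1, a nuclear co-activator of beta-catenin, had 7.30, 7.26 and 8.46 CPM in A2B1 libraries against 4.06, 5.16 and 5.72 CPM in controls (log2 fold change 0.62, SE 0.18; adjusted p = 0.122 in edgeR, 0.0921 in limma-voom and 0.0130 in DESeq2). Tnks, a tankyrase that lowers the scaffold protein Axin, had 69.3, 78.2 and 76.6 CPM in A2B1 libraries against 86.3, 94.2 and 91.5 CPM in controls (log2 fold change -0.28, SE 0.08, adjusted p = 0.124 in edgeR, 0.0949 in limma-voom and 0.0273 in DESeq2). Fbxw11, part of a ligase that marks beta-catenin for breakdown, had 65.3, 64.8 and 69.4 CPM in A2B1 libraries against 79.3, 75.2 and 79.3 CPM in controls (log2 fold change -0.23, SE 0.07, adjusted p = 0.133 in edgeR, 0.147 in limma-voom and 0.0290 in DESeq2). In these 3 the groups did not overlap, and the differences were small beside those of Sfrp5 and Nkd1. Ctnnb1, which encodes beta-catenin and was named after its values were seen, had 339, 324 and 296 CPM in A2B1 libraries against 364, 392 and 367 CPM in controls (log2 fold change -0.23, SE 0.09, edgeR adjusted p = 0.183). Tnks has the antisense partner Gm9939, while Ctnnb1 has the antisense partner Ulk4 and shares sequence with Mir7090 on its own strand, so both counts are uncertain.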

How the data were processed

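Per the labels' protocols, RNA was taken from frozen inguinal fat with Trizol and sequenced from TruSeq RNA libraries. Bowtie and build mm10 are named in the submitters' processing notes, without version or role. For counting, the sources used here give no program, annotation, filter or use of strand. The table the authors deposited holds raw whole-number counts for each gene and library, and no column of other samples. Values of 1, 2, 3 and 4 occur 8211, 6699, 7257 and 3493 times, so low counts may be rounded estimates. The 6 libraries were grouped by the treatment in the labels and numbered in accession order.

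Counts were analysed in R 4.3.3 with edgeR 4.0.16: filterByExpr (default, at least 10 counts in the equivalent of 3 libraries and 15 in total), TMM scaling, a robust quasi-likelihood fit with group as the only term, and a two-sided F test, adjusted over 19146 genes by Benjamini-Hochberg. The standard error is the log2 fold change divided by the square root of F. With counting intervals (exact Clopper-Pearson, 95%) and floors, only counting error is covered. An exact permutation test of 3 against 3 libraries cannot go below 0.1 and was not used. DESeq2 1.42.0, limma-voom (limma 3.58.1, sample quality weights), other scalings and filters, and each library left out were alternatives. The fitting scripts were tested on simulated data. Coordinates, exon lengths and overlaps came from GENCODE M21 by gene ID, and promoters from RefSeq on GRCm38.p6.

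Members and gene lists were chosen with earlier results of these data known. Named with values were members called, with an unadjusted p under 0.05 or with separate groups, and the 4 most abundant others of each family; for the pathway lists, called genes and the 3 smallest p-values in each; and Hnrnpa2b1. Where a symbol was repeated, the ID with most counts was used in lists. Markers of macrophages, mural cells, skeletal muscle and nerve were also summed. Of the 10, 10, 8 and 8 tested in these lists, edgeR called 0, 1, 1 and 0, against 1.82% of all tested genes. The called markers were lower, as were 1.33% of all tested genes.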

Additional observations from a re-analysis of the deposited data

How the results depend on the processing

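Sfrp5 was called under each alternative tried, with log2 fold changes of -3.12 to -2.83. The number of members called was 1 throughout except in DESeq2, which called 3, and 1 with any 1 library left out. The number of pathway genes called was 9 in DESeq2, 0 to 1 with 1 library left out, and 0 in a fit of 2 against 2 that dropped library 1 of each group and was chosen after seeing the data. Over all genes 349 were called, 2919 in DESeq2, 10 to 57 with 1 library left out and 7 in the fit of 2 against 2. Fits of fewer libraries have fewer residual degrees of freedom. Hnrnpa2b1 was called in DESeq2 (log2 fold change 0.45, adjusted p = 0.000113), and under the other alternatives its adjusted p was 0.0509 to 0.217. Signs turned in genes with small changes. In the fit of 2 against 2, Wnt2b had -0.057 and Wnt5a 0.093. With 1 library left out, Wnt5a ranged from -0.32 to 0.021, Wnt5b from -0.83 to 0.14, Wnt9a from -0.29 to 0.0091, Fzd6 from -0.32 to 0.024 and Axin2 from -0.22 to 0.27. Axin2 was -0.019 with library totals only and -0.13 in limma-voom. For differences between tests the cause was not tested. No paired analysis was possible because the labels give no replicate numbers shared by the groups.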

Other observations

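Mest, an imprinted gene often followed together with Sfrp5 in studies of expanding mouse fat, was named after its values were seen. It had 64.2, 80.7 and 69.9 CPM in A2B1 libraries and 671, 398 and 480 CPM in controls. The groups lay far apart, with a log2 fold change of -2.85 (SE 0.22, edgeR adjusted p = 0.0144), beside -2.99 (SE 0.17) for Sfrp5 in the same libraries.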
